A study of Homo sapiens with 10 samples.

Results

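In irradiated K562 cells, γH2AX at 1 h was depleted over domains of H3K27me3 and enriched directly outside them. Most of the change between these levels took place within a few kilobases of the edge of the H3K27me3. The domains were runs of at least 5 adjacent 10-kb windows in which the depth of the K562 H3K27me3 library was 2 or more times its library mean, with at least 3 windows under 0.5 of that mean next to the run on both sides. Of 3086 runs that reached this height and length, 57 had such flanks on both sides, and they gave the 114 borders described here, out of 280006 windows of the genome. The domains and borders were chosen by the measured H3K27me3 alone, so its own levels are given as a description, without a test. Positions are in hg19. Domains are named by position, since no gene annotation of that build was used here.

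H3K27me3 is written by Polycomb repressive complex 2, through its catalytic subunits EZH2 and EZH1, and is bound by CBX proteins of Polycomb repressive complex 1. In differentiated cells and in cell lines it forms broad domains over silent developmental genes. γH2AX is the histone variant H2AX phosphorylated on its C-terminal tail, mainly by the kinases ATM and DNA-PK, over wide stretches of chromatin on either side of a DNA double-strand break, where it is read by the adaptor MDC1. A domain border is a place where both kinds of chromatin can be compared over a short distance.

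The assay was CUT&RUN: an antibody directs a nuclease to its target and the DNA it releases is sequenced. The K562 line (erythroleukaemia) and the HepG2 line (hepatocellular carcinoma) received 6 Gy of ionizing radiation from a cobalt source and recovered before harvest. The groups were γH2AX in K562 at 1 h (n = 2) and at 24 h (n = 2), γH2AX in HepG2 at 1 h (n = 1), H3K27me3 in K562 at 1 h (n = 1), and H2AX in each line without irradiation (n = 2 for K562 and n = 2 for HepG2). For the H2AX libraries the antibody named in the labels is one against histone H4. Whether replicates were separate cultures is not stated, and γH2AX of unirradiated cells was not analysed here. A difference between γH2AX and H2AX therefore sets antibody and irradiation against untreated chromatin together, and these cannot be told apart. The cell lines rest on their labels, since expression markers are not part of these tracks, and Polycomb proteins were not profiled, so the name of the domains rests on H3K27me3.

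Mean depth per base was 1.44 and 1.78 in the K562 1 h γH2AX replicates, 1.10 in H3K27me3 and between 0.326 and 0.672 in the other 7 libraries. Each level given here is divided by the mean of its own library, with chromosome Y left out, so that 1 is the genome average. Low depths had steps of 60 bp in γH2AX at 1 h and H3K27me3 of K562 and of 41 bp in the other 7, so that in the contrast of 1 h with H2AX read length and group cannot be told apart. Some 1-kb bins had an average depth of 1.7 to 10 per base in the 1 h libraries. Replicate 1 of the K562 24 h γH2AX group read 0 in 100% of them, and replicate 2 in 0.0953% to 0.360%. Replicate 1 was kept out of the tests, apart from the fits of all 10 libraries.

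The 57 domains were 50 to 370 kb long, with a median of 110 kb, covered 7.54 Mb and lay on 18 chromosomes. Chromosome 1 held 10 of them. Mean H3K27me3 inside a domain was between 2.95 and 7.66, with a median of 4.94. Over the 30 kb on either side of a border, H3K27me3 had a median of 4.71 inside and 0.144 outside. The lowest window of a domain was at 2.0007, the lowest at an edge at 2.04 and the highest flanking window at 0.492. The 4 domains of exactly 5 windows had median γH2AX steps of -1.66 and -2.30 in the 1 h replicates, where a step is log2 of the level over the 30 kb inside minus log2 of the level over the 30 kb outside, with 0.05 added to each level. The 4 runs of exactly 4 windows, which the rule left out, had -1.63 and -2.19. Members with a flanking window between 0.4 and 0.5 had -1.38 and -1.90, and the 12 runs left out for a flanking window between 0.5 and 0.6 had -1.60 and -2.17.

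γH2AX was low and even inside the domains and high outside. Averaged over all 114 borders, including 6 that face stretches reading at or near 0 in every library, replicate 1 at 1 h stood at 0.608, 0.603, 0.60 and 0.619 in the 10-kb bins from 50 to 10 kb inside the border and at 0.853 in the last 10 kb. Outside, it stood at 1.95 in the first 10 kb and at 2.25, 2.29, 2.07 and 1.96 in the next bins. Replicate 2 had the same course with a wider range: 0.435, 0.423, 0.420 and 0.427 inside, 0.664 in the last 10 kb, then 2.22, 2.65, 2.64, 2.41 and 2.17 outside. The highest levels thus lay 10 to 30 kb outside the border in both replicates, and levels were lower again beyond 30 kb. H3K27me3, which was held under 0.5 by the rule over the first 30 kb, averaged 0.199, 0.127 and 0.132 there and 0.376 and 0.684 in the bins beyond. Untreated K562 H2AX ran nearly flat across the same borders: replicate 1 was between 1.33 and 1.37 inside and between 1.37 and 1.46 outside, and replicate 2 between 1.24 and 1.29 inside and between 1.31 and 1.36 outside.

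**Figure D1:**
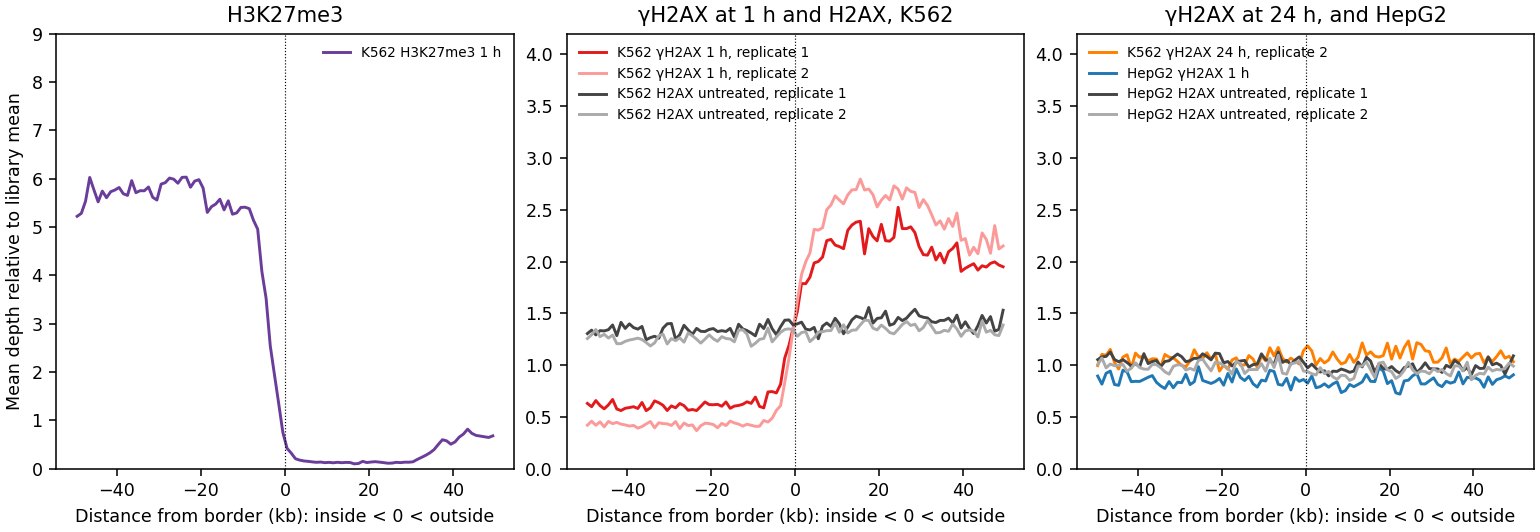
Mean depth relative to the library mean (vertical axis) in 1-kb bins against the distance from the border in kb (horizontal axis, inside negative), averaged over 114 borders, with 1 line for each library. The left panel has its own scale for H3K27me3. γH2AX at 1 h crosses from about 0.6 and 0.4 inside to above 2 outside, whereas the H2AX libraries, 24 h replicate 2 and HepG2 γH2AX stay nearly flat.

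The size of the change was tested with limma on the same step at all 271898 junctions of 10-kb windows in the genome with enough H2AX signal on both sides, with Benjamini-Hochberg adjustment over all of them. Of the 114 borders, 108 passed that filter. At these 108 borders the median level in replicate 1 at 1 h was 0.676 inside and 2.33 outside, and in replicate 2 it was 0.502 inside and 2.59 outside. Untreated H2AX had 1.37 inside and 1.49 outside in replicate 1, and 1.26 inside and 1.42 outside in replicate 2. Steps of the 1 h replicates ran from -2.27 to -0.61 and from -3.02 to -1.07, those of the H2AX replicates from -0.57 to 0.24 and from -0.60 to 0.66. The inside level was below 0.5 of the outside level in both 1 h replicates at 101 of the 108 borders, and replicate 2 had the steeper step at 107.

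All 108 tested borders were lower inside in γH2AX at 1 h than in H2AX (limma adjusted p between 7.65e-07 and 0.00283), and each had this direction in all 4 pairs of libraries. The background was 19.3% of all junctions called in either direction, 9.66% of them lower and 9.63% higher when read from left to right along the chromosome. The difference of the step between 1 h γH2AX and H2AX had a median of -1.82 on the log2 scale and a range from -2.62 to -0.94, with standard errors between 0.14 and 0.29. Its median size over all junctions was 0.19. When 24 h replicate 1 was put back, the 24 h group had a pair with median steps of 3.86 and -0.09. In that fit 0 of the 108 borders and 0 of all junctions passed limma's test. An unadjusted p under 0.05 was reached by 23 of the borders, beside 30776 of all 271898 junctions. In the fit without 24 h replicate 1 the groups with 1 library borrow the spread of the groups with 2.

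**Figure D2:**
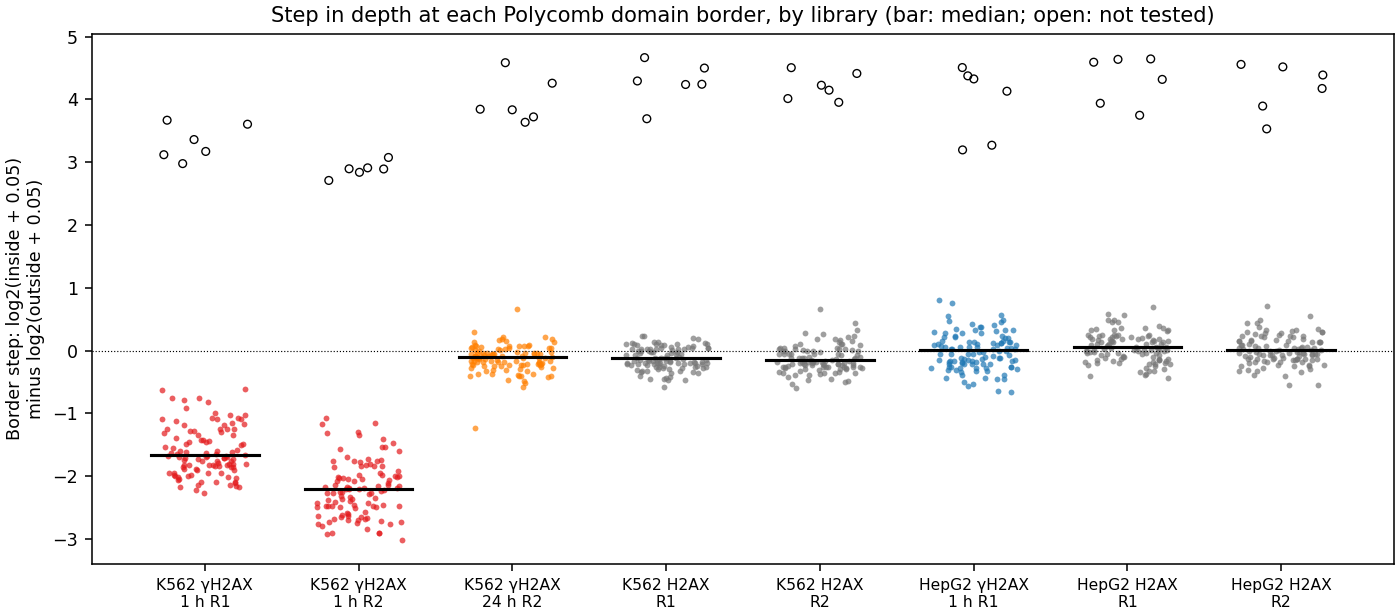
Border step in log2 units (vertical axis) at each of 114 borders, by library (horizontal axis); each point is a border, the bar is the median over all 114, and open circles are the 6 borders that did not pass the filter on H2AX. All tested borders are below 0 in both 1 h γH2AX replicates, with medians over all 114 of -1.67 and -2.20, and the other 6 libraries shown have medians between -0.15 and 0.05. H3K27me3, which chose the borders, and 24 h replicate 1 are not shown.

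Steepest and shallowest refer here to the difference of the step between 1 h γH2AX and H2AX. By this measure the steepest border was the right edge of a domain on chromosome 17, at 27400001 (the first base to the right of the border). Its 1 h steps by themselves were -1.64 and -2.90, against medians of -1.68 and -2.23 over the 108 tested borders. Its H2AX steps went the other way, at 0.03 and 0.66. γH2AX at 1 h was 0.871 and 0.523 inside and 2.82 and 4.22 outside, against H2AX levels of 1.00 and 1.11 inside and 0.979 and 0.685 outside. The difference of the step was -2.62 (SE 0.29, limma adjusted p = 7.05e-06). All γH2AX values inside were below all those outside, and H2AX did not share that order. At 24 h, replicate 2 had 0.711 inside and 0.573 outside.

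On chromosome 22 the border at 46960001, a right edge too, had γH2AX levels of 0.511 and 0.271 inside and 1.94 and 2.39 outside, with H2AX between 0.631 and 0.759 on both sides. Its difference was -2.46 (SE 0.24, limma adjusted p = 2.48e-06). On chromosome 15 the left edge of a 260-kb domain, at 76230001, had γH2AX levels of 0.647 and 0.518 inside and 2.75 and 3.38 outside, where H2AX read 1.51 and 1.45 inside and 1.49 and 1.41 outside. Its difference was -2.33 (SE 0.19, limma adjusted p = 8.67e-07). The highest outside levels among the 10 steepest borders were those at 127740001 on chromosome 7, with 4.32 and 6.50 outside and 1.19 and 0.828 inside at 1 h; H2AX was high on both sides there, with 2.15 and 1.97 inside and 2.39 and 1.94 outside. The other 6 of the 10 steepest borders had differences from -2.45 to -2.28.

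The 10 shallowest borders mostly had less γH2AX outside than the 10 steepest. They were ranked by the difference of the step, which contains the outside level, so this is partly set by the ranking. Their 1 h levels outside were between 0.809 and 2.12, against 1.94 to 6.50 at the steepest, while those inside were between 0.332 and 1.00, against 0.271 to 1.19. The shallowest was the right edge at 145830001 on chromosome 5, with 1 h levels of 0.932 and 0.550 inside and 1.61 and 1.53 outside, against H2AX levels of 1.58 and 1.43 inside and 1.77 and 1.56 outside. The difference was -0.94 (SE 0.20, limma adjusted p = 0.00283), and without H2AX replicate 2 its adjusted p was 0.0526. There γH2AX outside was within the range of H2AX on both sides of the border, and γH2AX inside was below it. Next came the right edge at 244990001 on chromosome 1, with 0.859 and 0.509 inside and 1.51 and 1.56 outside at 1 h, and a difference of -0.996 (SE 0.19, limma adjusted p = 0.00108). On chromosome 4 both edges of the domain between 139600001 and 139670001 were among the 10 shallowest, with differences of -1.10 at the left and -1.13 at the right. The same held for the domain between 69710001 and 69840001 on chromosome 14, with -1.06 and -1.13.

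**Figure D3:**
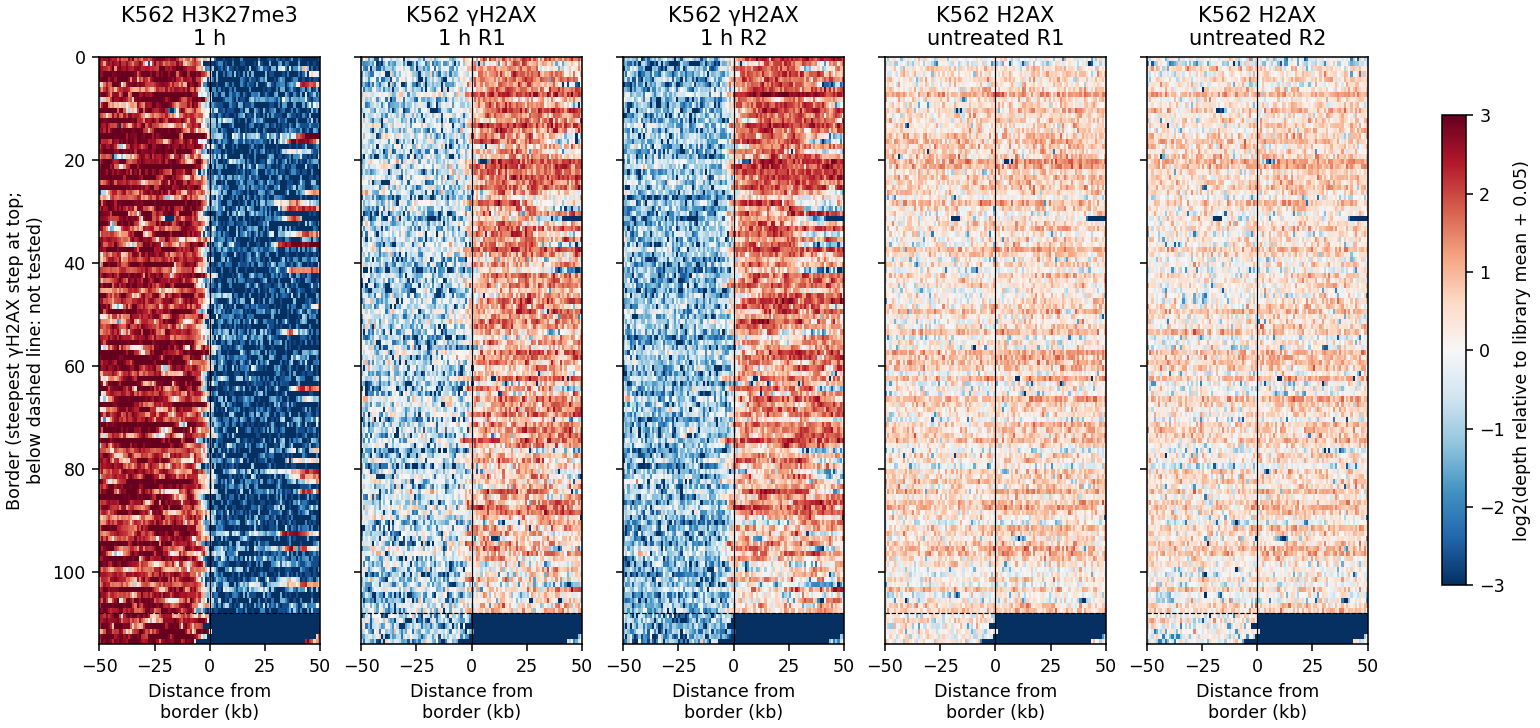
Log2 of the depth relative to the library mean plus 0.05 (colour), in 1-kb bins by distance from the border in kb (horizontal axis, inside negative), for each border (rows, steepest difference at the top; the 6 rows below the dashed line were not tested). H3K27me3 and both γH2AX replicates at 1 h change at the border in opposite directions in the rows above the line, and the H2AX replicates show no such change.

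Left and right borders of a domain did not rank alike in steepness. Of 52 domains with both borders tested, the left and right differences differed by a median of 0.32 and at most by 1.34. Spearman's rho between them was 0.01 (a description over 52 domains). The standard error at a single border had a median of 0.18, and the gap between the borders of a domain was not tested. The most unequal domain was on chromosome 11, where the left edge at 61920001 had a difference of -2.45 and the right edge at 62110001 had -1.12. γH2AX at 1 h was 2.56 and 3.49 outside the left edge and 1.88 and 2.12 outside the right one. A domain on chromosome 7 also had an edge in each list, with -1.19 at 5110001 and -2.28 at 5230001. Left and right edges as sets had medians of -1.88 and -1.78 (54 borders each). By chromosome, the medians of the 10 chromosomes with at least 5 tested borders ran from -2.00 on chromosome 9 (8 borders) to -1.29 on chromosome 4 (6 borders), and the 20 borders of chromosome 1 had a median of -1.71.

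The 6 borders that were not tested lie next to stretches in which every library read at or near 0. Outside the border the level was exactly 0 in all 10 libraries at 5 of them and between 0.00449 and 0.0445 at the sixth, on chromosome 16. Their steps were positive in every library, H2AX included, and no direction is taken from them.

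Most of the change in γH2AX lay within a few kilobases of the edge of H3K27me3. From 5.5 kb to 0.5 kb inside the border, H3K27me3 averaged 4.08, 3.53, 2.54, 1.94, 1.35 and 0.749 in successive 1-kb bins. Over the same bins γH2AX replicate 1 averaged 0.745, 0.732, 0.816, 1.07, 1.19 and 1.36, and replicate 2 averaged 0.488, 0.563, 0.609, 0.834, 1.07 and 1.34. In the first 6 kb outside, γH2AX averaged 1.52, 1.79, 1.79, 1.85, 1.99 and 2.0 in replicate 1, and 1.62, 1.88, 2.0, 2.08, 2.31 and 2.30 in replicate 2. Borders were placed on a grid of 10-kb windows, so these averages spread the edge over the bins within a window of it.

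The mean γH2AX profile crossed the midpoint between its levels 30 to 50 kb inside and outside at 0.80 kb inside the border in replicate 1 and at 0.45 kb inside in replicate 2, and H3K27me3 crossed its own at 4.07 kb inside. The distance from 10% to 90% of the change was 7.99 and 7.06 kb for γH2AX and 6.60 kb for H3K27me3. The offset between the marks, 3.45 kb on average, depended on the scale. On the profile of log2 levels, the midpoints were 2.18 and 1.57 kb inside for γH2AX and 1.94 kb inside for H3K27me3, so that the replicates lay on opposite sides of H3K27me3. No order of the marks along the border is taken from these values.

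The position was also taken at each border. The 1-kb position of the sharpest change within 20 kb of each border, found from the levels of the 10 kb on either side of it, was within 2 kb of that of H3K27me3 at 70 of the 108 tested borders (64.8%) in γH2AX replicate 1 at 1 h and at 73 (67.6%) in replicate 2. Within 5 kb it was 92 and 99. In 24 h replicate 2 it was within 2 kb at 14 borders (13.0%), in HepG2 γH2AX at 15 (13.9%) and in the K562 H2AX replicates at 11 (10.2%) and 12 (11.1%). The 24 h replicates differed. In 24 h replicate 1, which read 0 where the 1 h libraries were high, it was within 2 kb at 71 borders (65.7%). The 1 h replicates found each other's position within 2 kb at 70 borders. The 6 untested borders were left out here, since at each of them every library reads at or near 0 outside.

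Over whole windows, γH2AX at 1 h stood below H2AX inside the domains and above it outside. The 754 windows inside domains had median levels of 0.607 and 0.430 in the 1 h replicates, against 1.34 and 1.28 in H2AX. The 324 tested windows within 30 kb outside had γH2AX levels of 2.21 and 2.61, against H2AX levels of 1.47 and 1.39. Over all tested windows of the genome, 1 h γH2AX had medians of 0.785 and 0.752 and 5th percentiles of 0.324 and 0.222. The inside windows were thus nearer to the median window than those outside were. Inside, 719 of 754 windows were lower at 1 h than in H2AX (limma, adjusted p under 0.05) and 0 were higher, with a median log2 difference of -1.26. Outside, 206 of 324 were higher and 0 lower, with a median of 0.66. Of all 274222 windows tested, 55.3% were called, 36.6% of them lower and 18.7% higher, and their median was -0.05. With all 10 libraries in the fit, 0 of the 754 windows and 0 of all windows passed. In that limma fit 659 of the 754 had an unadjusted p under 0.05, beside 84088 of all 274222 windows.

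Each domain by itself had the same contrast. The level at 1 h over that of H2AX, each averaged over the replicates, was between 0.289 and 0.611 inside the 57 domains, with a median of 0.425. Over the 30 kb on either side it was between 0.975 and 3.21 with a median of 1.68, above 1 at 55 domains and below 1 at 1; the flanks of the last domain read 0. Replicate 1 had medians of 0.479 inside and 1.49 outside, and replicate 2 had 0.360 inside and 1.84 outside. The lowest outside ratio was still above the highest inside ratio.

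**Figure D4:**
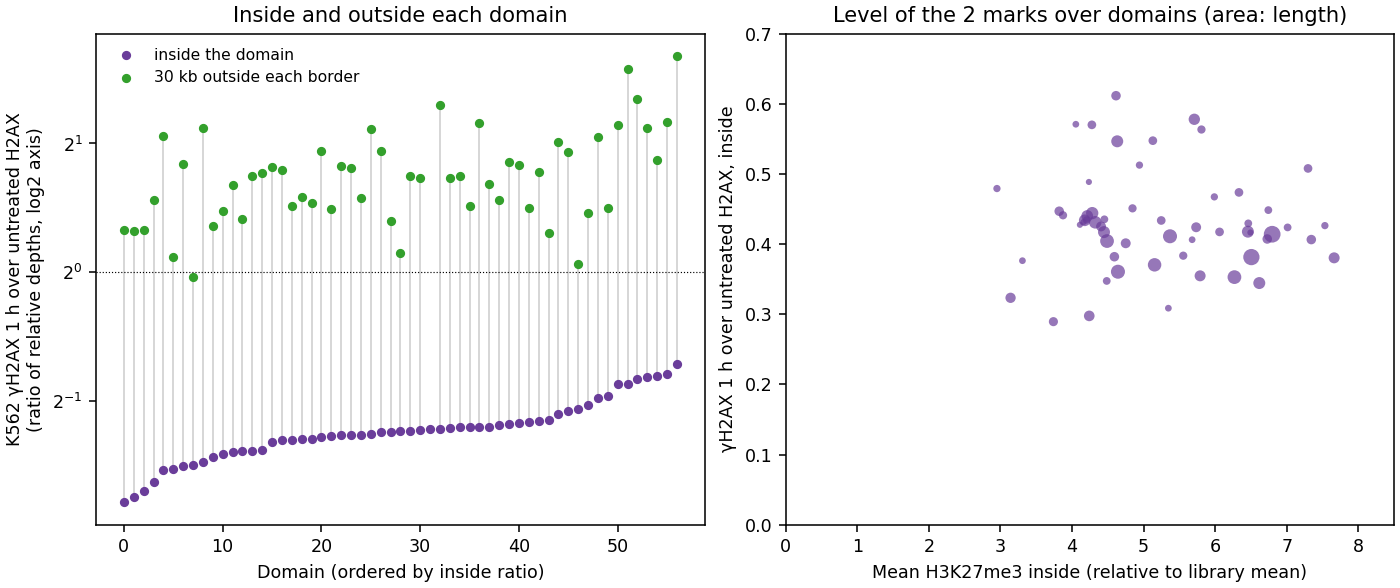
Left, ratio of K562 γH2AX at 1 h to untreated H2AX (log2 axis, ratio of relative depths averaged over replicates) inside each domain and over the 30 kb outside it, domains ordered by the inside ratio; the domain whose flanks read 0 has no outside point. Right, the inside ratio against the mean H3K27me3 of the domain relative to its library mean, with point area for length. Inside ratios lie between 0.289 and 0.611 at any height of H3K27me3 from 2.95 to 7.66.

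From domain to domain, the γH2AX ratio inside varied little with the mean H3K27me3. Across the 57 domains, which share libraries and depth, Spearman's rho of the inside ratio was -0.12 with mean H3K27me3 and -0.29 with length, and 0.43 with the outside ratio. Within domains, 1-kb bins at least 10 kb from a border were sorted by their own H3K27me3. The 2324 bins between 2 and 5 times the mean had γH2AX levels of 0.583 and 0.401, the 3207 bins between 5 and 10 had 0.612 and 0.426, and the 390 bins at 10 or more had 0.758 and 0.488. H2AX was higher in the same order: 1.24 and 1.19, then 1.46 and 1.36, then 1.7 and 1.54. The 426 bins inside domains in which H3K27me3 dipped to between 0.5 and 2 had 0.592 and 0.488, and the 50 bins under 0.5 had 0.344 and 0.294, with H2AX at 0.682 in both replicates. Outside the domains, the 3233 bins under 0.5, which were 94.5% of those there, had 2.19 and 2.55. In these gaps of H3K27me3 inside the domains, γH2AX was below its level outside. H2AX was lower there too. It was 1.13 and 1.12 in the 426 bins, against 1.41 and 1.34 in the 3233 bins outside. Relative to H2AX, γH2AX was somewhat higher in the 426 bins than in the inside bins between 2 and 10, in both replicates.

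γH2AX was also level along the length of a domain. In the 19 domains of at least 150 kb, the log2 ratio of the centre to the edge had medians of -0.02 in replicate 1 and -0.0034 in replicate 2, and the centre was the lower one in 11 and 10 domains. H3K27me3 had a median of -0.13. The longest domain, on chromosome 1 from 25170001 to 25540000, spans 370 kb with a mean H3K27me3 of 6.80. γH2AX at 1 h was 0.782 and 0.555 inside it, and 2.85 and 2.52 in its flanks, against H2AX levels of 1.69 and 1.54 inside and 1.94 and 1.88 in the flanks.

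**Figure D5:**
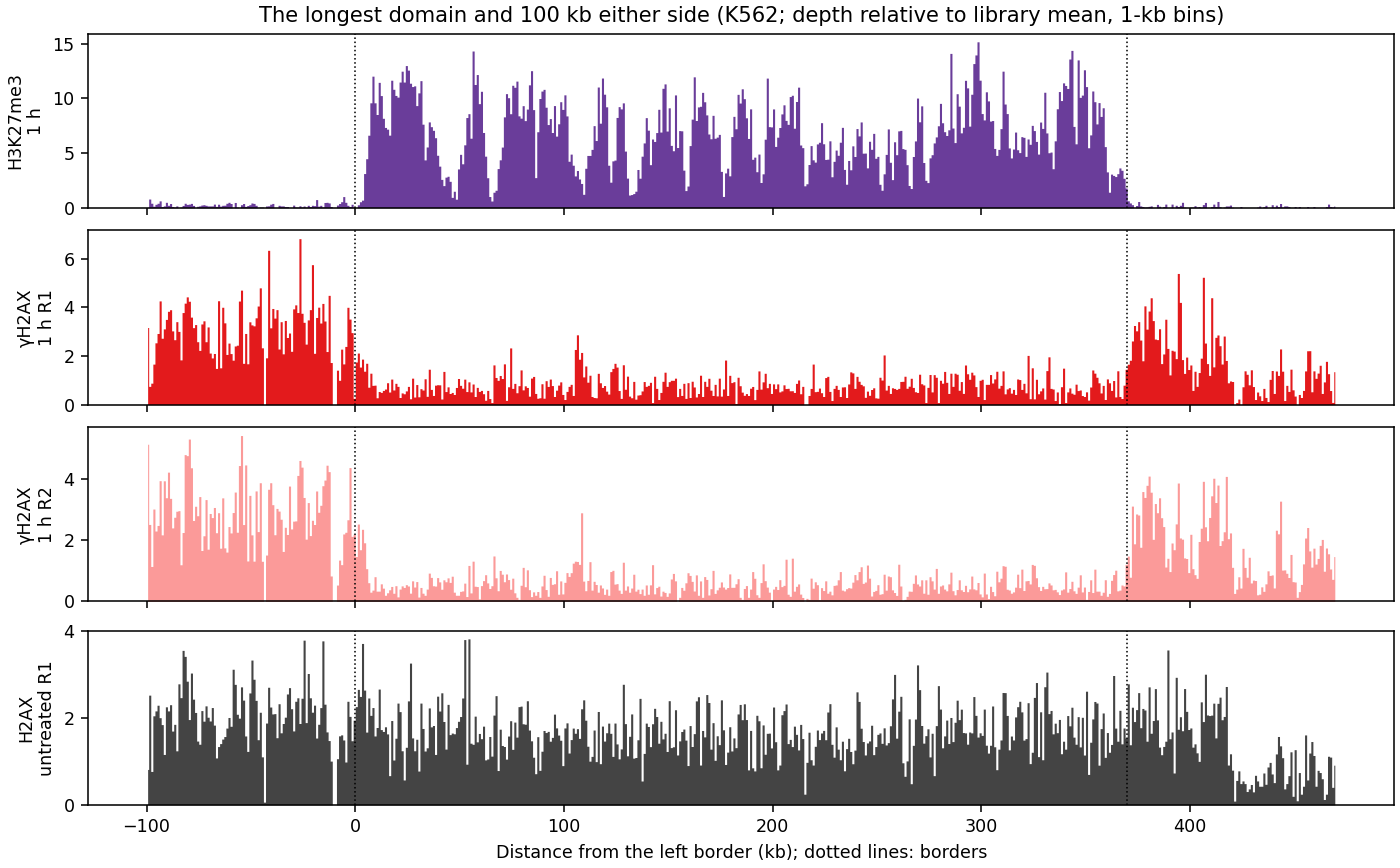
Depth relative to the library mean in 1-kb bins (vertical axes, 1 scale for each panel) over the longest domain and 100 kb on either side, by distance from its left border in kb; dotted lines mark the borders. γH2AX averages 0.782 and 0.555 over the whole domain between the lines, and H2AX replicate 1 averages 1.69 there.

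The second longest domain lies on the same chromosome, from 17380001 to 17730000, with γH2AX of 0.694 and 0.537 inside and 2.14 and 2.57 in the flanks. A domain of 260 kb on chromosome 20, from 44720001 to 44980000, had 0.593 and 0.441 inside and 2.42 and 3.02 in the flanks. The domain with the highest mean H3K27me3, 7.66, lies on chromosome 1 from 19240001 to 19400000. It had γH2AX levels of 0.713 and 0.473 inside and 2.60 and 3.07 outside. Next in H3K27me3 were domains on chromosome 1 from 36110001 to 36180000, with 7.53, and on chromosome 10 from 72190001 to 72310000, with 7.34. The domain of 70 kb on chromosome 1 had γH2AX levels of 0.912 and 0.699 inside and 3.35 and 3.79 in its flanks. The domain of 120 kb on chromosome 10 had 0.862 and 0.590 inside, and its flanks were unequal, with 3.37 and 3.92 at the left and 1.58 and 1.98 at the right, where its edge is among the 10 shallowest. H2AX there was 2.08 and 1.92 at the left and 1.74 and 1.51 at the right. On chromosome 11 the domain from 130020001 to 130100000, with 7.01, had γH2AX levels of 0.584 and 0.392 inside and 2.46 and 2.65 in its flanks, and its left edge, at -2.37, is among the 10 steepest. Over the 5 longest domains the inside ratio to H2AX was between 0.353 and 0.414, and over the 5 with the most H3K27me3 between 0.380 and 0.508.

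The authors' deposited peaks of γH2AX at 1 h, called for each replicate, were nearly absent from the domains and dense outside them. Replicate 1 had 3 peaks inside the 57 domains and 246 within 30 kb outside, or 0.398 and 71.9 peaks per Mb, against 15.0 per Mb over the genome. Replicate 2 had 4 inside and 295 outside, or 0.531 and 86.3 per Mb, against 16.5 over the genome. Every peak inside lay within 10 kb of a border, and 55 and 53 of the 57 domains had no peak at all. By distance, the density in replicate 1 was 55.3 per Mb in the first 10 kb outside, then 73.7, 86.8, 78.9 and 63.2. In replicate 2 it was 67.5, then 97.4, 93.9, 92.1 and 73.7. The median deposited fold enrichment of the outside peaks was 1.79 and 1.8, against 1.78 and 1.76 for all peaks of the lists. Most peaks did not reach q under 0.05. Of the outside peaks 8.13% and 18.0% did, against 8.10% and 14.7% of all peaks. At that cut 20 and 53 peaks lay outside and 0 inside. At least 1 peak lay within 30 kb outside of 79 and 89 of the 114 borders. Peaks were called on the same libraries as the levels above and are not a separate measurement.

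At 24 h the step was not found in replicate 2. Its median level at the 108 tested borders was 1.03 inside and 1.14 outside, and its median step over all 114 borders was -0.09, against -0.12 and -0.15 in the H2AX replicates. The difference between 24 h replicate 2 and H2AX had a median of 0.01 and a range from -0.77 to 0.50 with a median standard error of 0.23. limma called 0 of the 108 borders and 0% of all junctions; 5 borders and 18662 junctions had an unadjusted p under 0.05. In the direct contrast of 1 h with 24 h replicate 2, which was added after the data had been seen, all 108 borders were lower inside at 1 h (limma adjusted p at most 0.0291; background 17.1% of junctions, 8.52% lower and 8.56% higher from left to right), with a median of -1.83. This contrast and that with H2AX share the 1 h libraries. Mean depth was 1.44 and 1.78 at 1 h and 0.592 in 24 h replicate 2, and its part in the difference was not tested. Steps were 60 bp at 1 h and 41 bp in 24 h replicate 2, so read length and time cannot be told apart in this contrast.

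Over windows, 24 h replicate 2 stood as far below H2AX inside the domains as outside, with median log2 differences of -0.33 inside and -0.33 outside. limma called 0 of 754 inside windows and 0% of all windows (142 and 36640 at an unadjusted p under 0.05). This count depended on the 1 h libraries that enter the shared spread: without 1 h replicate 1 it was 171 lower and 4 higher inside the domains, beside 10.9% of all windows called, and without replicate 2 it was 170 and 4, beside 10.7%. In the direct contrast of 1 h with 24 h replicate 2, 553 of the 754 inside windows were lower at 1 h and 3 higher (limma; background 47.6% of windows, 32.3% lower and 15.4% higher), and outside 238 of 324 were higher and 1 lower.

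In HepG2 the borders, which were drawn from the H3K27me3 of K562, had no step in γH2AX at 1 h. The level was 0.80 inside and 0.833 outside at the 108 borders, and the median step over all 114 was 0.01, against 0.05 and 0.00 in HepG2 H2AX. The difference from H2AX had a median of -0.04 and a range from -0.58 to 0.60. limma called 0 of 108 borders and 0% of all junctions (12 and 23380 at an unadjusted p under 0.05). Over windows the medians were -0.23 inside and -0.22 outside, with 0 called. At an unadjusted p under 0.05 in limma were 128 of the 754 inside windows, beside 21654 of all 274222. Some inside windows, nearly all lower, were called when either K562 1 h replicate, which enters the shared spread, was left out. H3K27me3 of HepG2 was not analysed here, so these positions are not known to be Polycomb domains in that line.

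The HepG2 arm of the next contrast is a single library, whose spread was taken from the other groups. The difference between the lines was tested as the K562 difference between 1 h γH2AX and H2AX minus that of HepG2. It was negative at all 108 borders, with a median of -1.73 and a range from -2.93 to -0.78. limma called 102 of them lower (adjusted p over all 108 between 0.000211 and 0.110; background 10.1% of junctions, 5.03% lower and 5.07% higher from left to right). Without the filter on low windows 52 of 114 were called, beside 3.41% of all junctions. With all 10 libraries in the fit 0 of 108 were called by limma. An unadjusted p under 0.05 was reached there by 5 of the 108, beside 16228 of all 271898 junctions. Over windows, 389 of 754 inside were lower in the K562 response and 148 of 324 outside were higher (limma; background 28.8% of windows, 19.5% lower and 9.26% higher). The count of inside windows depended on the libraries in the fit, and the share of all windows called moved with it. Both were lost without either K562 H2AX replicate, fell without either HepG2 H2AX replicate and rose without either K562 1 h replicate. With all 10 libraries in the fit 0 inside windows were called. In that limma fit 226 of the 754 had an unadjusted p under 0.05, beside 31561 of all 274222 windows. The K562 libraries at 1 h had mean depths of 1.44 and 1.78 and 60-bp steps, and the single HepG2 library had 0.521 and 41-bp steps. The part of either in this difference was not tested.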

How the data were processed

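CUT&RUN libraries were used as the authors deposited them. The deposited signal tracks hold coverage, the mean read depth per base in 1-kb bins on hg19; per the submitters' processing notes the tools included BWA 0.7.12, SAMtools and MACS2, whose settings are not given in the sources used here. The deposited peak lists of K562 γH2AX at 1 h, called per replicate, give for each peak a fold enrichment (a ratio) and −log10 of p and q in the layout of MACS2 broad peaks. Other peak lists were not used.

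Each track was divided by its mean without chromosome Y. By their steps the tracks correspond to 79.5 to 297 reads per 10 kb at the mean. Replicates differed by more than sampling: variance over sampling noise was 2.43 and 2.42 in HepG2 and K562 H2AX, 11.5 at 1 h and 29.1 at 24 h. Domains were built with Python 3.11.15, numpy 2.4.6 and pandas 2.3.3. Steps and windows were tested on log2(relative depth + 0.05), which understates changes near 0, with limma 3.58.1 in R 4.3.3 (empirical Bayes with trend, a mean for each group, 9 libraries, 3 residual degrees of freedom), keeping flanks and windows in which H2AX of each line was at least 0.25. Adjusted p under 0.05 was called. Since separate cultures are not stated, p-values rest on the spread between libraries, which may be only technical.

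The members, lists and tests were chosen with earlier results of these data known, including the opposite course of γH2AX and H3K27me3, so the direction at the borders is no independent support for it. The 10 steepest and 10 shallowest called borders, the 5 longest domains and the 5 with the highest H3K27me3 were to be named. Replicate numbers did not pair the samples. Alternatives were pseudocounts, filters, scaling, flank widths, border rules, peak thresholds, the libraries in the fit, a replicate block and leaving out each replicate.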

Additional observations from a re-analysis of the deposited data

Results flagged for a closer look

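In the contrast of the K562 response with the HepG2 response, 102 of 108 borders were lower inside in K562, beside 10.1% of all junctions called. HepG2 γH2AX is 1 library without a replicate, 52 of 114 borders were called without the filter on low windows, and 0 of 108 with all 10 libraries in the fit. Between times, 108 of 108 borders were lower inside at 1 h than in 24 h replicate 2, also a single library, beside 17.1% of all junctions, and 0 of 108 were called with all 10 libraries.

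Replicate 1 of K562 γH2AX at 24 h entered only the fits of all 10 libraries. It had a median step of 3.86 over 114 borders, higher inside at every border. K562 H2AX had -0.12 and -0.15. In this library 10.3% of the 1-kb bins inside and 90.4% of those within 30 kb outside read exactly 0, against 1.11% and 6.05% in 24 h replicate 2. Over 10-kb windows, the 24 h replicates had a Spearman's rho of 0.08, and the 1 h replicates 0.89. Of the 1-kb bins with an average depth of 1.7 to 10 per base at 1 h, in which 24 h replicate 1 read 0 throughout, H3K27me3 read 0 in 29.1% to 36.2%.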

How the results depend on the processing

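γH2AX was called lower inside at all 108 tested borders under pseudocounts of 0.01 and 0.2, median-of-ratios scaling and flanks of 20 and 50 kb. The same held with borders moved to the 1-kb bin where H3K27me3 crosses its mean, and with only the 4 libraries compared. The share of all junctions called was 19.0% and 20.1% under the pseudocounts, 19.4% under the scaling and 17.1% with the 4 libraries. Without the filter on low windows, beside 15.5% of all junctions, 110 of 114 were called. These include some of the borders that read at or near 0 outside, from which no direction is taken. With all 10 libraries in the fit, 0 borders were called at 1 h against H2AX or 24 h, and 0 between the lines. The median at 1 h against H2AX was again -1.82. Of the 754 windows, 0 were called at 1 h against H2AX and 0 between the lines. At 1 h against 24 h, 511 were called lower and 2 higher, beside 31.4% of all windows called. Borders flanked on their own side only numbered 738, of which 705 of 710 tested were called lower and 1 higher. A threshold of 3 times the mean gave 28 borders, of which 27 of 27 tested were called. Both sets were counted among the same junctions as the main set, of which 19.3% were called. Without the filter on low windows, 52 of 114 borders were called between the lines.

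Leaving out single replicates gave 107 to 108 borders at 1 h against H2AX, 107 to 108 against 24 h replicate 2, 81 to 108 between the lines, 0 to 0 for 24 h and for HepG2 against H2AX, and 623 to 735 windows. Those that left out a HepG2 library, and all but the first and last of these ranges, were added after the data had been seen. A lone library is assumed there to vary like the other groups. The replicate block, whose numbers did not pair (correlations of deviations -0.01, 0.01 and 0.01), gave 108 borders and 727 windows. Beside these, 19.7% of all junctions and 57.1% of all windows were called. The same 6 libraries without the block gave 108 and 724, beside 19.6% and 56.6%.

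The midpoint offset of 3.45 kb became 2.99 kb with moved borders, 3.08 kb with borders flanked on their own side and 0.061 kb on the log2 profile. The difference in peaks per Mb, inside minus outside, averaged -78.6 over the lists; it was -90.7 with the threshold of 3, -10.7 for peaks with q under 0.05, -47.1 for regions shared by both lists over at least 1 bp and -40.4 with an overlap of 50% of the shorter. Of the 20 named borders, 0 changed direction; the one at 145830001 on chromosome 5 lost its call in 2 settings besides the fit of all libraries (adjusted p up to 0.0526). Median-of-ratios scaling moved H3K27me3 by 1.15 on the log2 scale, and the H3K27me3 library has no replicate. Coverage limits single bins more than the 30-kb flanks, which hold more reads.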
